A study of Homo sapiens with 6 samples.

Results

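The MYC, MAX and MXD network is a set of transcription factors that meet on the same DNA site. The 10 genes MYC, MYCN, MYCL, MAX, MXD1, MXD3, MXD4, MXI1, MNT and MLX were taken from the 19775 genes read by the arrays, through every probe set that the array annotation pairs with one of their symbols. This gave 34 of 54613 probe sets, a probe set being a group of short probes read as 1 value. The cells were MM1.S, an established human multiple myeloma line, infected with a lentiviral pKLO vector and sorted for GFP. The 3 control arrays came from cells given a control shRNA and the 3 knockdown arrays from cells given an shRNA against beta-catenin, the Wnt co-activator encoded by CTNNB1; both groups went through infection and sorting. The cultures were triplicates of sorted cells, and separate infections are not described, so p-values measure the spread between these cultures. How many hairpins were used is not known here. In bulk samples such as these, fewer cells of a kind and less RNA per cell cannot be told apart. A remark on embryos in the sample labels does not match the named cell line and was left aside.

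MYC proteins bind DNA only as pairs with MAX, and the pairs recognise the E-box CACGTG and activate growth and metabolism genes. The MXD proteins, MXI1 and MNT pair with the same MAX and bring SIN3 and HDAC corepressors to E-boxes, so they compete with MYC; MLX is a MAX relative that pairs with MondoA (MLXIP) and with some MXD proteins and MNT. In many cell types MYC is high in dividing cells, while MXD1, MXD4 and MXI1 rise on differentiation or growth arrest and MXD3 is found in cells in S phase. In multiple myeloma MYC is a recurrent oncogene, and MYC is also a much-studied target gene of beta-catenin with its TCF/LEF partners. The question of the comparison was which transcripts differ after beta-catenin knockdown.

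The knockdown was visible on the brightest of 3 CTNNB1 probe sets. That probe set fell by 1.33 on the log2 scale (SE 0.10, limma, adjusted p = 9.04e-12). Another went the opposite way and was called higher over all probe sets, by 0.33 (limma, adjusted p = 0.0390). Its knockdown arrays all lay above its controls. The third differed by −0.07 and was not called. Averaged over all 3, CTNNB1 changed by −0.36. On these arrays all 10 plasma cell markers and all 5 markers of MAF-type myeloma had means above the filter of 5.49, the median of all probe set means. So did 3 of 5 B cell, 3 of 6 T and NK cell, 2 of 5 myeloid, 4 of 6 fibroblast and 2 of 5 epithelial markers measured. Above the 75th percentile of all probe set means (6.41) lay 9 plasma cell and 5 MAF-type markers. Of the others 2 of 5 B cell, 0 of 6 T and NK cell, 1 of 5 myeloid, 2 of 6 fibroblast and 0 of 5 epithelial markers did. The plasma cell and MAF-type markers also changed. Of the MAF-type markers 4 of 5 were called higher, with medians of 9.68 to 9.89 on the control and 10.9 to 11.0 on the knockdown arrays. Of the 10 plasma cell markers 4 were called higher and 3 lower, where 25.3% of all genes tested were called higher and 22.0% lower. The part of these marker changes in the results on the network was not tested. Array medians ran from 5.44 to 5.50 in control and from 5.50 to 5.54 in knockdown cultures. The 3 ribosomal RNA control probe sets averaged 8.58 to 10.1 in control and 10.3 to 11.0 in knockdown cultures (exact permutation p = 0.1, the smallest that 3 against 3 arrays can give), and its part in those results was not tested either.

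In the network, MYC itself was not called different, 2 of its antagonists rose (MXI1 and MXD1) and 1 fell (MXD3). The MXD1 call was that of 226275_at, its brightest probe set only when the knockdown arrays are included. The MXD1 probe set brightest on the controls (228846_at) differed by 0.06 and was not called over all probe sets. A gene was read by its brightest probe set with a single symbol, tested if that probe set's mean reached the filter, and called at a limma adjusted p under 0.05 over all genes tested. Of the 10 genes, 8 were tested, 2 were called higher, 1 lower and 5 not called. Of all 12939 genes tested, 47.3% were called, 25.3% higher and 22.0% lower, so the number of network genes called was no larger a share than that of all genes. MYCL lay below the filter, and MXD4 has no probe set of a single symbol. The median change was 0.08 over the 8 network genes and 0.05 over all genes tested. Control and knockdown arrays did not overlap for 5 of the 8, against 54.4% of all genes tested.

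**Figure D1:**
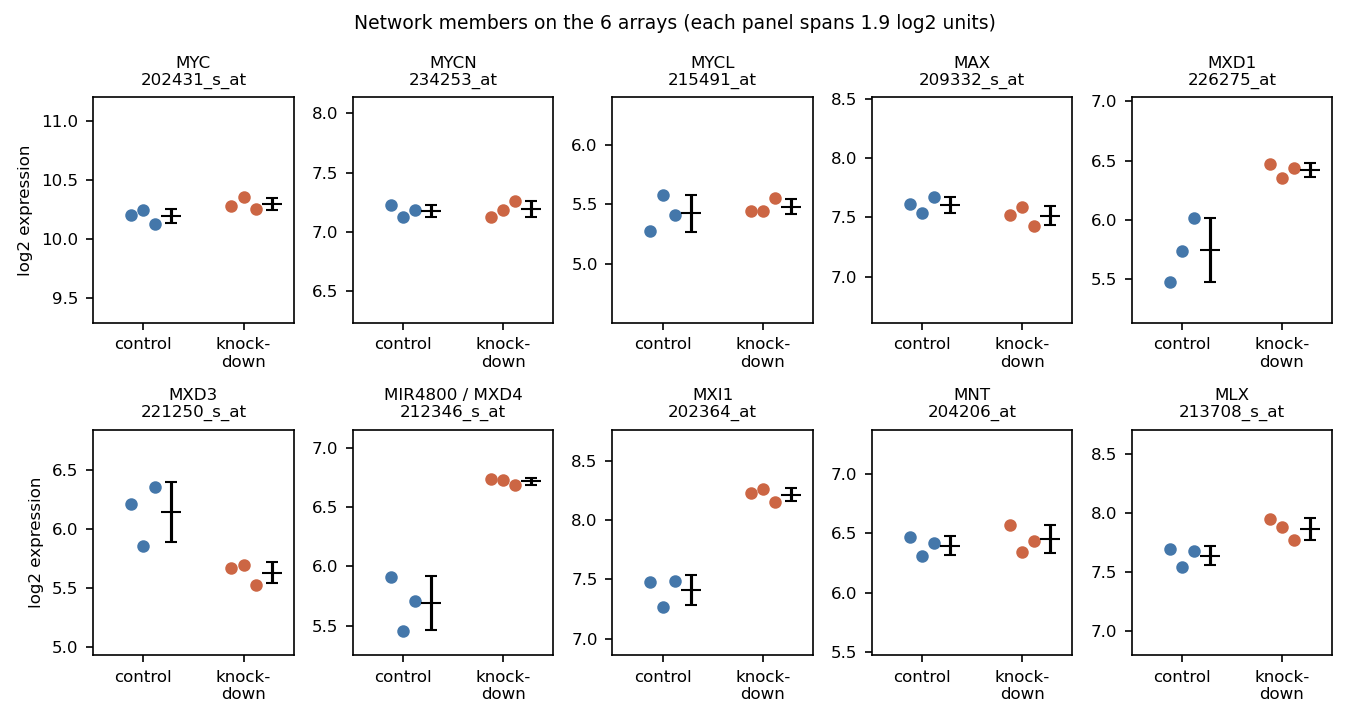
Deposited log2 expression on the vertical axis, by group, for 1 probe set of each network gene; points are single arrays (3 control, 3 knockdown), and the bar beside them is the mean with its SD. Each gene is shown by its brightest probe set, except MIR4800 and MXD4, shown by that with the smallest adjusted p (212346_s_at, change 1.03). The brightest of those (212347_x_at) changed by 0.37. MXI1, MXD1 and the probe set shared by MIR4800 and MXD4 sat higher in all 3 knockdown arrays, MXD3 lower, and MYC differed by 0.10.

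MYC, the driver of growth and ribosome production, has 1 probe set here (202431_s_at). It read 10.20, 10.25 and 10.13 in the controls and 10.28, 10.36 and 10.26 in the knockdown. The 3 knockdown arrays were thus just above the 3 controls, by less than the fit could call. The means were 10.19 ± 0.06 and 10.30 ± 0.05 (SD, n = 3 each), and the difference was 0.10 (SE 0.06, 95% interval −0.03 to 0.23; limma, adjusted p = 0.193). The interval holds no fall larger than 0.03 under the deposited scaling. Centring on array medians lowered the difference to 0.05 (limma, adjusted p = 0.627), so this limit depends on the scaling. No alternative setting called MYC, and its difference ran from 0.05 to 0.13 over them.

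All but 1 of the 12 probe sets of the other MYC family genes lay below the filter. MYCN, the family member of neural progenitors and neuroblastoma, has 10 probe sets, of which 1 lay above the filter. That one (234253_at) read 7.18 ± 0.05 in control and 7.19 ± 0.07 in knockdown cultures (SD, n = 3 each), a difference of 0.01 (95% interval −0.19 to 0.22; limma, adjusted p = 0.922). The other 9 probe sets averaged between 4.27 and 5.31 in either group, close to the table's floor of 4. One of them, 242026_at, was called higher over all probe sets, from 4.55, 4.84 and 4.76 in the controls to 5.08, 4.97 and 5.26 in the knockdown (change 0.39; limma, adjusted p = 0.0463). The remaining MYCN probe sets differed by −0.44 to 0.39 and were not called, so a rise was seen by 1 of 10, and it was lost in 12 of 16 alternative settings.

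MYCL, the family member first found in small cell lung cancer, has 2 probe sets, both below the filter. One (214058_at) read 4.95, 5.03 and 5.43 in the controls and 5.61, 5.61 and 5.58 in the knockdown, which do not overlap (change 0.46, SE 0.13; limma, adjusted p = 0.0227 among all probe sets). The other (215491_at) differed by 0.06 and overlapped. The call was lost when any 1 array other than control replicate 3 was left out (adjusted p 0.0555 to 0.0939).

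Of the shared partners, neither MAX nor MLX was called as a gene. MAX, the obligate partner of MYC, MXD and MNT proteins, read 7.61, 7.54 and 7.67 in the controls and 7.52, 7.59 and 7.43 in the knockdown on its brightest probe set (209332_s_at). The groups overlapped, with a difference of −0.09 (95% interval −0.30 to 0.11; limma, adjusted p = 0.474). None of the 5 MAX probe sets was called, and their differences ran from −0.09 to 0.33. The sign for MAX turned with the probe set chosen: it was 0.07 when its probe sets were averaged and 0.33 when probe sets without _x_ or _s_ in the name came first. That value is from 214108_at, whose arrays scattered most of the 5 (SD 0.26 in control and 0.34 in knockdown cultures, n = 3 each).

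MLX, the partner of MondoA, was above its controls on some probe sets and not on others. Its brightest probe set (213708_s_at) read 7.69, 7.54 and 7.67 in the controls and 7.95, 7.88 and 7.77 in the knockdown, which do not overlap (difference 0.23, SE 0.10, 95% interval 0.03 to 0.43; limma, adjusted p = 0.0591). That missed the threshold, and it passed after quantile normalization (adjusted p = 0.0098), cyclic loess (0.0152), a filter at the 75th percentile (0.0468), without control replicate 1 (0.0399) or without knockdown replicate 3 (0.0439). The next, 217909_s_at, rose from 7.45 ± 0.09 to 7.76 ± 0.07 (SD, n = 3 each; change 0.31; limma, adjusted p = 0.0230 over all probe sets), and this call was lost in 7 of 17 alternative settings. The probe set 217910_x_at averaged 7.23 in control and 7.24 in knockdown cultures, a difference of 0.01. The remaining 3 differed by 0.22, −0.07 and −0.11 and were not called. Averaged over its 6 probe sets, MLX differed by 0.10 (limma, adjusted p = 0.379).

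MNT, the widely expressed antagonist that pairs with MAX or MLX, read 6.47, 6.31 and 6.42 in the controls and 6.57, 6.34 and 6.44 in the knockdown (204206_at). The arrays overlapped, with a difference of 0.05 (95% interval −0.17 to 0.28; limma, adjusted p = 0.723) that changed sign under the 3 other scalings, where it lay between −0.0013 and −0.00028. Its second probe set (236749_at) differed by −0.02.

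The MXD antagonists held the called changes. MXI1, which pairs with MAX and recruits SIN3, had the largest change of the 8 genes tested. Its probe set (202364_at) read 7.47, 7.26 and 7.49 in the controls and 8.23, 8.26 and 8.15 in the knockdown. The lowest knockdown array thus lay well above the highest control. The means were 7.41 ± 0.13 and 8.21 ± 0.06 (SD, n = 3 each), a rise of 0.80 (SE 0.10, 95% interval 0.60 to 1.01), or 1.75-fold (limma, adjusted p = 7.17e-08). It stayed called in all 20 alternative settings, with a rise of 0.66 to 0.86.

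MXD1, a MAX-binding repressor of differentiating cells, rose on 2 of its 3 probe sets. The brightest (226275_at) read 5.48, 5.74 and 6.02 in the controls and 6.47, 6.35 and 6.44 in the knockdown. The controls were spread more widely than the knockdown arrays, and the groups did not overlap. The rise was 0.68 (SE 0.12, 95% interval 0.42 to 0.93), or 1.60-fold (limma, adjusted p = 4.26e-05). On the controls alone 228846_at was brighter (mean 5.94 against 5.74), so the rise entered the choice of 226275_at for the gene. No alternative setting chose the probe set by the controls alone. The dimmest (206877_at), close to the floor, rose from 4.35 ± 0.14 to 4.85 ± 0.06 (SD, n = 3 each; limma, adjusted p = 0.00978 among all probe sets). The other (228846_at) read 5.94 ± 0.06 and 6.00 ± 0.12 (SD, n = 3 each), a difference of 0.06 (95% interval −0.17 to 0.29). The gap of 0.62 between the changes of the brightest and this one had an exact permutation p of 0.1, the smallest possible, and an adjusted value of 0.40 over 24 such pairs of probe sets in the network. With the mean over the 3 probe sets MXD1 rose by 0.41 (limma, adjusted p = 0.000928), and with an offset of 64 in place of 16 under the logarithm by 0.39.

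The 3 probe sets for MXD4 are paired with both that gene and MIR4800, so that no value is given to MXD4 alone, a repressor of the same family. All 3 were called higher over all probe sets. The first (212346_s_at) read 5.91, 5.45 and 5.71 in the controls and 6.73, 6.73 and 6.68 in the knockdown, a rise of 1.03 (SE 0.12), or 2.04-fold (limma, adjusted p = 2.42e-05). The second (210778_s_at) rose by 0.50, from 5.45 ± 0.11 to 5.95 ± 0.14, and the third (212347_x_at) by 0.37, from 6.75 ± 0.10 to 7.12 ± 0.11 (SD, n = 3 each; limma, adjusted p = 0.00573 and 0.0170). None of the 3 overlapped between groups. The calls of the latter 2 were lost without moderation and against a 1.2-fold change, and that of 212347_x_at also without control replicate 3 (adjusted p = 0.0715) or knockdown replicate 2 (0.0929).

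MXD3, the family member found in dividing cells, went the other way. Its probe set (221250_s_at) read 6.21, 5.86 and 6.35 in the controls and 5.67, 5.69 and 5.53 in the knockdown. All 3 knockdown arrays lay below the controls, of which replicate 2 was the nearest. The fall was −0.51 (SE 0.13, 95% interval −0.77 to −0.25), or 1.42-fold (limma, adjusted p = 0.00130). The call was lost without moderation (adjusted p = 0.0767) and against a 1.2-fold change (0.12). With an offset of 64 the change was −0.28. Over all probe sets its adjusted p was 0.0119, and it was not called without control replicate 3 (adjusted p = 0.055).

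**Figure D2:**
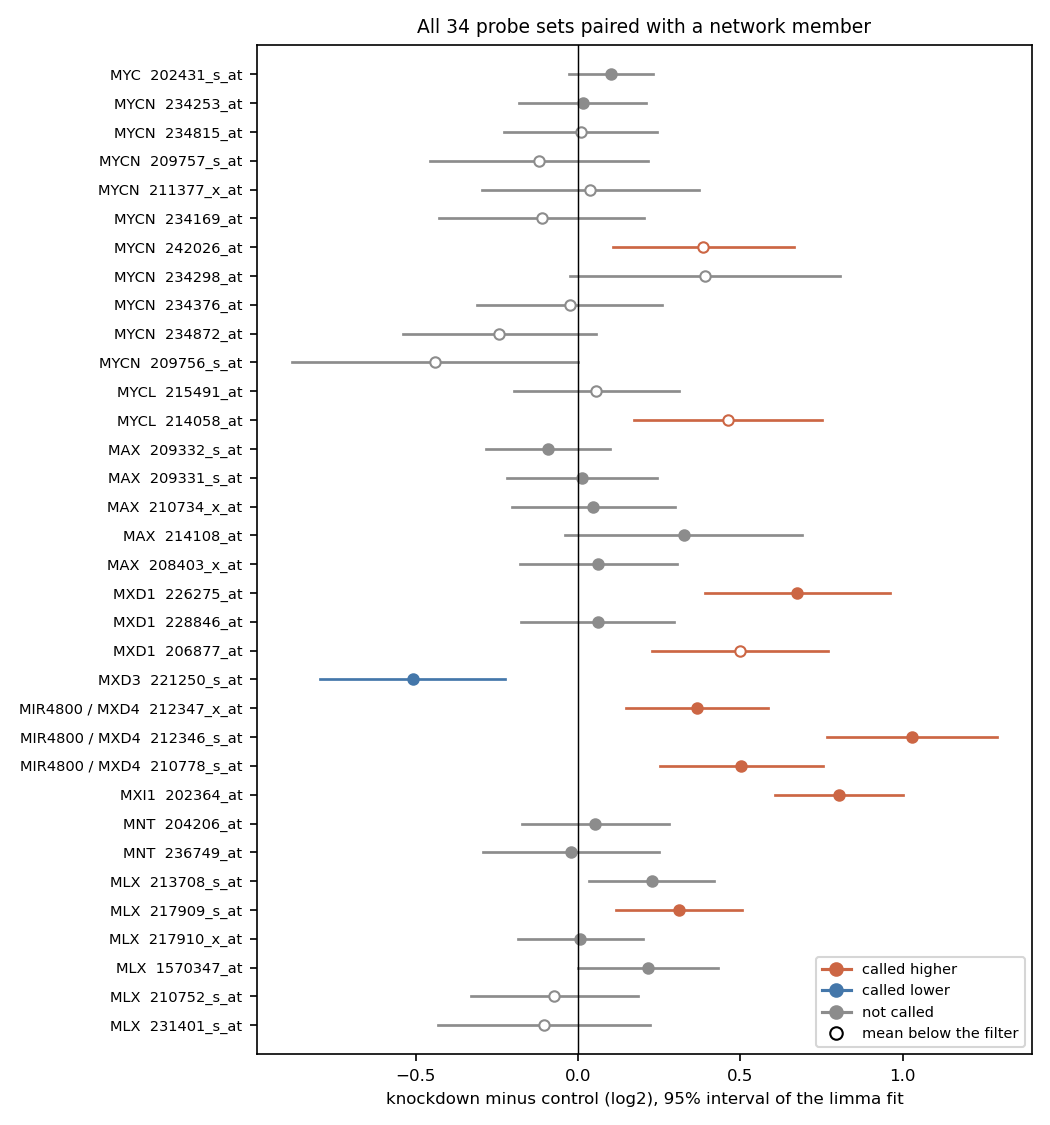
Knockdown minus control on the log2 scale for each of the 34 probe sets, grouped by gene, with the 95% interval of the limma fit; colour gives the call over all probe sets, and open points have a mean below the filter. The called rises sit among MXD1, MXI1 and the MIR4800 / MXD4 probe sets, with 1 each in MYCN, MYCL and MLX, and MXD3 is the one called fall.

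Across all 34 probe sets, 9 were called higher and 1 lower, and 24 were not called. Of all 54613 probe sets, 23.2% were called, 13.3% higher and 9.95% lower. Of the 20 network probe sets above the filter 7 were called, where 38.3% of all those above it were. Of the 14 below the filter 3 were called, where 8.19% were. The split used the mean of all 6 arrays, so a change could carry a probe set across it. On the controls alone 210778_s_at, among the 7, lay below the filter (5.45). The groups did not overlap on 14 of the 34, against 37.2% of all probe sets. By gene, the 1 probe set of MXI1 and the 3 shared by MIR4800 and MXD4 were called higher, and the 1 of MXD3 lower. Called higher were also 2 of 3 of MXD1, 1 of 6 of MLX, 1 of 10 of MYCN and 1 of 2 of MYCL. None of the 2 of MNT, the 5 of MAX and the 1 of MYC was called.

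Promoter sequence was read for the network because its proteins act at E-boxes. The windows, from 250 bases before to 50 after each annotated start, come from RefSeq (GRCh38.p14). An entry was at hand for 9 of the 10 genes, with 12 windows in all. MYC had none, so its promoter was not read. Both strands were searched for the E-box CACGTG, which reads alike on both, and for the variant E-box CACGCG. The first was found in 3 windows, those of MXD4, MNT and MLX, against 7.26% of 35116 windows of this length. The second was found in 2, those of MXD3 and 1 of 3 MXI1 start sites, against 11.4%. The bases before the MXD1 and MXD4 starts are shown because probe sets paired with each symbol (2 of 3 for MXD1, and 3 shared with MIR4800 for MXD4) were called higher, while the MXD4 window holds the E-box and that of MXD1 does not; short stretches show the remaining matches. Capitals mark the E-box in the MXD4, MNT and MLX sequences, the variant E-box in that of MXI1, and in that of MXD3 the variant E-box on the other strand joined to an E2F-type match. Each runs 5′ to 3′ on the gene's strand.
MXD1, chr2:69914859-69915108, plus strand: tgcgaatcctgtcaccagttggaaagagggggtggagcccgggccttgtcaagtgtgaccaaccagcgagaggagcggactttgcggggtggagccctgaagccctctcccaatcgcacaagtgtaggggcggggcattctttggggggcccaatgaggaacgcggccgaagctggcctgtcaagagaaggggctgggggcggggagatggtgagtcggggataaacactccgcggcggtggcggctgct
MXD4, chr4:2262110-2262359, minus strand: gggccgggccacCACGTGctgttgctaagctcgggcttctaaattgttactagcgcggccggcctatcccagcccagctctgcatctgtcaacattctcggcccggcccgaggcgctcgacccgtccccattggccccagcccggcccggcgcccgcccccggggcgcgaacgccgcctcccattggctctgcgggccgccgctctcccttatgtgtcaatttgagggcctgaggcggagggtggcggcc
MNT, chr17:2401233-2401268, minus strand: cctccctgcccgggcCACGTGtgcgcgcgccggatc
MLX, chr17:42567035-42567070, plus strand: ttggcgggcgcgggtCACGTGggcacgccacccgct
MXD3, chr5:177312727-177312756, minus strand: aaaaggccaTTTCGCGTGcctccagggtat
MXI1, chr10:110225992-110226021, plus strand: aggtaaacaaacCACGCGcgggctgcccgc

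The first base of the E-box lay at −238 from the MXD4 start, at −193 from that of MNT and at −50 from that of MLX. The CTTTGAT motif of the TCF/LEF factors, the DNA-binding partners of beta-catenin, was in none of the 12 windows, against 2.62% of all windows. With so low a share its absence from these few windows says little, and MYC was not among them. The E2F-type motif TTTCGCG, in 1.32% of all windows, was found in those of MXD3, where it overlaps the variant E-box by 4 bases, and MYCN. The related motif TTTGGCG, in 1.92%, was found in that of MYCN, where it overlaps the former by 2 bases. A match describes the letters in this window and is not a measured binding site. Of the members with the E-box, MNT and MLX were not called as genes and MXD4 was not tested as one. Among their probe sets, 1 of 6 of MLX and the 3 shared by MIR4800 and MXD4 were called higher.

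**Figure D3:**
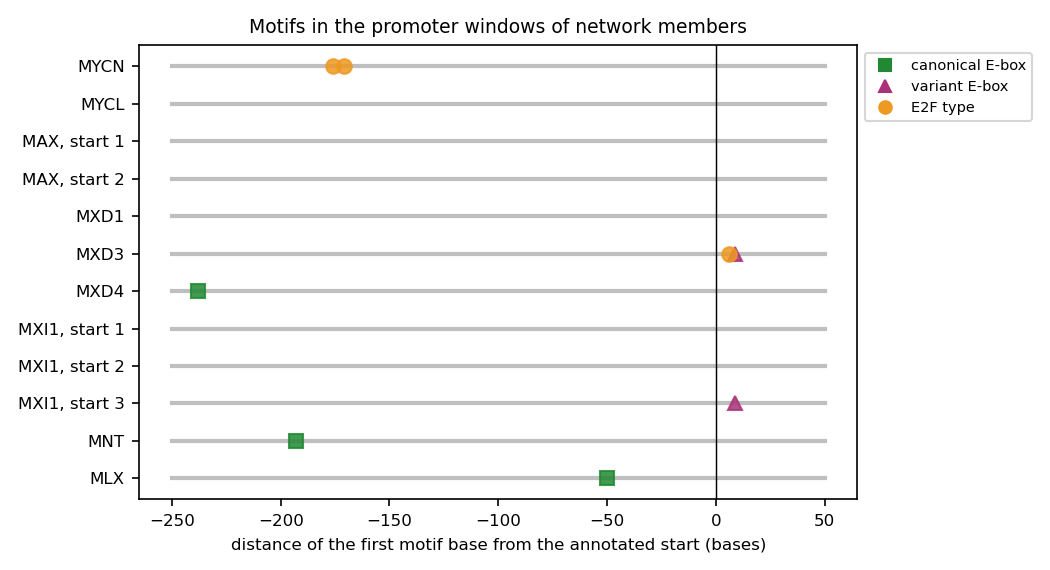
Position of each motif match in the 12 promoter windows, as the distance in bases of its first base from the annotated start (the vertical line); a row is 1 window and a point 1 match. E-boxes lie at −238, −193 and −50 in the windows of MXD4, MNT and MLX, and the variant E-boxes at 9 in those of MXD3 and MXI1.

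The other genes of the pathway were taken from 8 lists. Of the other partners of MAX and MLX, 2 of 3 were tested and 1 was called (all genes 47.3%): MLXIP (MondoA), which senses glucose metabolites, rose by 0.37 (7.13 ± 0.15 to 7.51 ± 0.19, SD, n = 3 each; limma, adjusted p = 0.00726). That call was lost without knockdown replicate 2 (adjusted p = 0.0625), and 1 of its 4 probe sets was called; averaged over them it changed by 0.23. MGA, the large MAX partner, differed by 0.26 (limma, adjusted p = 0.0591), while 2 of its other probe sets were called lower. Of the 4 tested genes that MondoA and MLX activate, 2 were called, both higher, near the 47.3% called over all genes: TXNIP, a brake on glucose uptake, rose by 0.92 and the repressor KLF10 by 0.60 (limma, adjusted p = 2.77e-09 and 6.33e-05). HK2 and PFKFB3, chosen after their values were seen, differed by −0.06 and −0.14.

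Of 7 tested leucine zipper factors that bind the same or similar E-boxes, 4 were called higher and 2 lower, with a median of 0.34, against 25.3% higher and 22.0% lower among all genes. MITF rose by 0.45, the sterol regulator SREBF2 by 0.37, and the lysosomal regulators TFEB and TFE3 by 0.43 and 0.34 (limma, adjusted p from 0.00146 to 0.00745). SREBF2 and MITF were carried by 1 of 3 probe sets each; averaged over them SREBF2 differed by 0.13 and was not called, and MITF changed by 0.27. MITF was also not called when probe sets without _x_ or _s_ came first (0.23), and against a 1.2-fold change none of the 4 was. TFEB was called on 1 of 2 and TFE3 on 3 of 4. The 2 lower ones, TFAP4 (−0.29) and USF2 (−0.30), were chosen after their values were seen; the list had 2 lower calls in 8 of 20 alternative settings and 0 or 1 in the others.

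Genes that MYC activates were mostly lower. Of 28 tested, 21 were called lower and 2 higher, where 22.0% of all genes were lower and 25.3% higher. The median was −0.69, against 0.05 over all genes tested. LDHA, which makes lactate, read 11.96, 12.06 and 11.99 in the controls and 10.81, 10.86 and 10.85 in the knockdown, a fall of −1.16 (limma, adjusted p = 4.15e-18). SRM, the spermidine synthase, changed by −1.79, HSPE1, the mitochondrial co-chaperonin, by −1.29 and PTMA, prothymosin alpha, by −0.88 (limma, adjusted p from 6.61e-17 to 6.38e-15). The groups did not overlap for 23 of the 28, against 54.4% of all genes. The 2 higher ones, named after their values were seen, were SHMT2, a mitochondrial one-carbon enzyme (0.51), and ODC1, the first enzyme of polyamine synthesis (0.18). Several members, among them LDHA, SRM and HSPE1, had been seen to fall in earlier results of these data, so the count is not independent evidence of direction.

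Genes that MYC represses were mostly higher. Of 8 tested, where 25.3% of all genes were called higher, 5 were called higher and 0 lower (in limma, 0 lower at an unadjusted p under 0.05 as well), with a median of 0.63. DDIT3, the stress factor CHOP, read 6.11, 6.34 and 5.96 in the controls and 8.62, 8.71 and 8.73 in the knockdown, a rise of 2.55 (limma, adjusted p = 7.25e-18). CDKN1A, the CDK inhibitor p21, rose by 2.10, GADD45A by 1.25 and NDRG1 by 0.58. The fifth was CDKN1C (0.68), named after its values were seen. Its control mean of 5.42 lay below the filter and its knockdown mean of 6.10 above, so it was tested only through its rise. With no filter 5 of 10 genes of the list were called higher. As background, these genes also answer to p53 or to stress pathways, and CDKN1A and GADD45A were known to be higher from earlier results of these data.

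Of 19 tested coactivators and chromatin cofactors of MYC, 8 were called lower and 1 higher (median −0.21). Of all genes 47.3% were called, so the number called was near the share over all genes, with 22.0% of all genes lower and 25.3% higher. WDR5, which helps hold MYC on chromatin, read 7.58, 7.51 and 7.73 in the controls and 6.34, 6.49 and 6.22 in the knockdown. Its change was −1.26, or −0.64 when probe sets without _x_ or _s_ came first. The helicase RUVBL2 changed by −1.08, the BAF and NuA4 subunit ACTL6A by −0.85 and HCFC1, a binding partner of MYC, by −0.57 (−0.31 averaged over probe sets; limma, adjusted p of the 4 from 6.89e-11 to 6.09e-06). The 1 higher was EP300 (0.37), named after its values were seen; TRRAP, the scaffold of the MYC acetyltransferase complexes, differed by 4.3e-04 and was also chosen so.

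Most tested subunits of the corepressor that MXD proteins recruit were lower in RNA. Of 17 listed, 14 had a probe set of a single symbol and were tested. Of 14 tested SIN3 and HDAC subunits, 10 were called lower and 1 higher, with a median of −0.42, where 22.0% of all genes were lower and 25.3% higher. SAP30 read 9.24, 9.24 and 9.36 in the controls and 8.22, 8.21 and 8.02 in the knockdown, a fall of −1.13 (limma, adjusted p = 6.72e-12), or −0.58 averaged over its probe sets. The deacetylase HDAC2 changed by −0.72 (−0.44 averaged likewise), BRMS1 by −0.62 and the histone-binding RBBP7 by −0.40 (limma, adjusted p from 6.83e-07 to 3.08e-05). The groups did not overlap for 12 of the 14, against 54.4% of all genes. This list too was chosen with earlier results of these data known, so its count is not independent evidence of direction. The scaffold SIN3B was the 1 higher (0.59) and its relative SIN3A was lower (−0.47), both named after their values were seen. Against a 1.2-fold change 3 subunits were called lower. When probe sets without _x_ or _s_ came first, 10 were tested, 7 called lower and 3 higher. RBBP4, counted as lower and named after its values were seen, had 2 of 6 probe sets called lower and 2 higher.

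Of 19 tested regulators of MYC protein stability, 5 were called higher and 6 lower (median −0.03), where 25.3% and 22.0% of all genes were, so calls in each direction were not far from the share over all genes. SET, an inhibitor of the phosphatase PP2A, changed by −0.76, AURKA, a mitotic kinase that can shield MYC family proteins, by −1.81, and PPP2CA, a catalytic subunit of PP2A, by −1.12. Averaged over its 3 probe sets PPP2CA changed by −0.29. PIM2, a kinase that stabilises MYC, rose by 0.53 (limma, adjusted p = 1.53e-08). The other 4 that rose, chosen after their values were seen, were PIM1 (0.64), BTRC (0.47), STUB1 (0.42) and HUWE1 (0.22). FBXW7 and GSK3B, chosen likewise, differed by 0.16 and −0.03 on the probe sets used and were not called. MYC protein was not measured here.

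**Figure D4:**
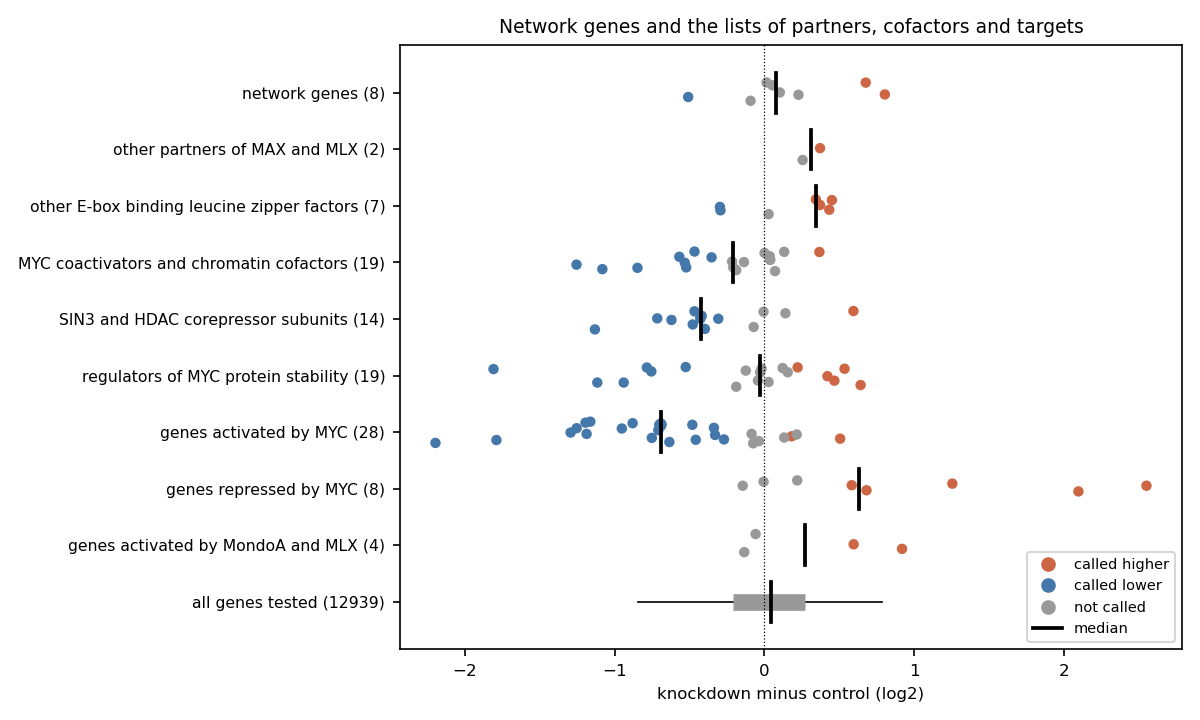
Knockdown minus control on the log2 scale for each tested gene (points, coloured by call) of the network and of the 8 lists, with the median as a bar and the number tested in brackets; the bottom row gives all 12939 genes by median, quartiles (box) and 5th to 95th percentiles (line, −0.85 to 0.79). The genes activated by MYC and the SIN3 and HDAC subunits lie mostly below 0 and the genes repressed by MYC mostly above, while MYC itself differed by 0.10.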

How the data were processed

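For each of 54675 probe sets on 6 one-colour Affymetrix arrays, the authors deposited a log2 expression value. They had a floor at 4, as log2(signal + 16) would give; that form was read from the values, and it understates changes of dim probe sets. MAS5 and PLIER are named, per the submitters' processing notes, with neither role nor version; no source here gives the scaling between arrays. The 62 control probe sets were left out. Under the platform annotation 41091 probe sets had 1 gene symbol, 1801 several and 11721 none here. Groups came from the titles.

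Knockdown was compared with control in limma 3.58.1 (eBayes with intensity trend; R 4.3.3; two-sided; Benjamini-Hochberg; threshold 0.05), once per gene and once over all non-control probe sets; adjusted p-values of probe sets not used for a gene are from the latter. The fit was tested on simulated data. Single values were compared by exact two-sided permutation tests. Members and lists were chosen with earlier results of these data known, and several list genes were shown in them. The text names every member and up to 4 called genes of each list by adjusted p, other genes being marked. The alternatives were the replicate block, 3 scalings, filters, probe set rules, variance models, offsets of 1 and 64, and leaving out each array.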

Additional observations from a re-analysis of the deposited data

How the results depend on the processing

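Same-numbered control and knockdown arrays did not deviate together (r = −0.09, −0.26 and −0.30), so the numbers gave no sign of pairing. Differently numbered arrays had r from −0.08 to 0.28. Deviations from the means of only 3 arrays a group cannot exclude cultures or batches that were handled together. With the replicate block 2 network genes were called higher and 1 lower, as without it. Over 20 alternatives MXI1 and MXD1 (19 for MXD1) stayed called and MYC uncalled. None of these alternatives chose the MXD1 probe set by the controls alone. MXD3 was not called lower (0 network genes) with the filter at the 75th percentile, where it was not tested, without moderation or against a 1.2-fold change. The scalings moved the median of all genes by −0.055 to −0.04. Uncalled genes turned sign as follows: MYCN −0.00071 (quantile), −0.041 (centring), −0.0067 (cyclic loess), −0.011 (mean over probe sets) and −0.0203 to 0.0461 leaving out 1 array; MNT −0.00028, −0.0013 and −0.00075 under the 3 scalings and −0.0077 to 0.11 leaving out 1 array; MAX 0.071 and 0.33 under other probe set rules. Of the 24 uncalled probe sets, 15 turned sign in some setting and 1 (MLX) was called in some.

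Network probe sets called higher were 3 and lower 0 both without moderation and against a 1.2-fold change, and 5 to 8 and 0 to 1 leaving out 1 array. Against a 1.2-fold change the calls were 1366 higher and 1459 lower over all genes, 11 higher over all lists, 0 coactivators higher, 3 SIN3 and HDAC subunits lower, 2 stability regulators higher and 1 MYC-activated gene higher. That last count was also 1 with centring, without trend and without moderation, and 1 to 3 leaving out 1 array. The mean over probe sets gave 0 coactivators higher and 2 corepressor subunits higher; probe sets without _x_ or _s_ first gave 3 corepressor subunits and 3 stability regulators higher; and the 75th percentile filter gave 0 corepressor subunits higher. The cause of these shifts was not tested. All but 1 of the MYCN probe sets and both of MYCL lay below the filter, which limits what can be said of them.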
